A study of Homo sapiens with 4 samples.

Results

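The genes described here are 40 genes of DNA replication, chosen by name from a list that covers the licensing of replication origins, the replication fork and the supply of nucleotides. The choice was made with earlier results of these data known. All 40 had a named probe, among 19951 genes with one. They were measured in H9 (WA09), an established human embryonic stem cell line, with 1 bead array of total RNA for each of 4 passage groups. The earliest group, P1, held cells at passages in the 40s. P2 was at passages in the 100s, P3 in the 200s and P4 in the 300s. All 4 groups were of this one line, and the labels name no treatment or genetic change. With 1 array a group there is no spread between replicates, so every difference compares 2 arrays, no test was possible and no p-value is given. A gene was called detected on an array at 38.4 intensity units or more, the 60th percentile of all probes. Of the 40 genes, 38 were detected on all 4 arrays, DBF4 on P2 alone and GINS1 on none.

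A replication origin is licensed when the origin recognition complex (ORC), with CDC6 and CDT1, loads the ring of MCM2 to MCM7, the core of the replicative helicase, onto DNA. The kinase of CDC7 and DBF4, together with CDC45, the GINS complex and MCM10, turns the loaded ring into an active helicase. Primase and polymerase alpha then start each strand, the sliding clamp PCNA is loaded by replication factor C (RFC), and polymerases delta and epsilon extend the strand. Most of these genes are transcribed in waves as cells pass from G1 into S phase, under E2F transcription factors. Human embryonic stem cells have a short G1 phase, so much of a growing culture is in S phase. In whole-culture RNA, fewer cells in S phase and less RNA per cell cannot be told apart.

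The arrays detected between 11322 and 11426 genes each. Of the marker genes of undifferentiated cells, 11 of the 11 with a probe were detected on every array, and their summed intensity lay between 71453 in P2 and 82294 in P4. POU5F1, a core pluripotency factor, read 4110 (P1), 4379 (P2), 5446 (P3) and 5467 (P4). The pluripotency factor NANOG read 1678, 1247, 1215 and 1620 in the same order, and SOX2 read 5475, 5210.1, 4935 and 5132. Of the trophoblast markers none of 7 was detected on any array, and of the mesoderm markers 1 of 9. The neural list had 6 of 10 genes detected on at least 1 array, with a summed intensity of 6398 (P1), 7623 (P2), 8493 (P3) and 8184.6 (P4), and PAX6, SOX1, NEUROG2 and ZIC1 were under the limit throughout. The endoderm list had 3 of 6 genes detected, with SOX17, GATA6 and CXCR4 under the limit throughout. Its summed intensity was low, at 101.5 (P1), 303 (P2), 253 (P3) and 136 (P4), and was highest in P2; its 2 genes detected in P2 against P1 had a median log2 difference of 1.04. The fibroblast list had 5 of 10 genes detected, with a summed intensity of 7931 (P1), 9844 (P2), 10454 (P3) and 12104 (P4). COL3A1, LUM, DCN, POSTN and FN1 were under the limit throughout, while other collagen genes of the list were detected. In P4 against P1 all 5 detected genes were above 0, where 53.6% of all genes were, with a median log2 difference of 0.64. Of these, 3 were at least 1.5-fold higher, where 6.80% of all genes were. The part of these lists in the values of the replication genes was not tested.

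Replication genes were higher in P2 than on the other arrays, by small amounts. Of the 39 detected genes, 23 had their highest value in P2, where 30.0% of all detected genes had theirs. None had its highest value in P4, where 20.9% of all detected genes did. The remaining genes were highest in P1 (10 genes, 25.6%) or P3 (6 genes, 15.4%). Of all detected genes, 27.2% were highest in P1 and 21.9% in P3, so the P1 share was near that of all genes. DBF4 counted as detected through P2 alone and so had to be highest there; of the 38 members detected on all 4 arrays, 22 were highest in P2, against 30.8% of all such genes. Over these 38 the range across the arrays was at most 1.69-fold, for GINS4, a subunit of the GINS complex. None of the 38 had a highest value 2-fold over its lowest, while 8.67% of all genes detected on all 4 arrays did. That background includes genes dimmer than most members.

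The promoters of several of these genes are shown first, because E2F binding at replication promoters is the classic textbook case of shared control in this pathway. RefSeq's promoter table (GRCh38.p14) held 35 of the 40 genes, with 250 bases before and 50 bases after each gene's start. The words TTTCCCGC, TTTCGCGC, TTTGCCGC and TTTGGCGC, forms of the E2F consensus, were searched on both strands. At least 1 of them lay in 16 of the 35 promoters (45.7%), against 3.33% of all 27305 promoters of this length and 5.31% of those of detected genes. The 250 bases before the start are printed for 3 MCM genes and for POLE, the catalytic subunit of polymerase epsilon, all higher in P2, and for PCNA and PRIM1, which were lower in P2 than in P1. Capitals mark E2F words that lie wholly in the printed bases, read on the strand of the gene. A further MCM3 word begins 4 bases before the start, runs past the printed end and is not marked. The windows, in the same order, are chr6:52284743-52284992, chr2:135876444-135876693, chr7:100101398-100101647, chr12:132687343-132687592, chr20:5126623-5126872 and chr12:56752324-56752573, each on the minus strand and printed 5′ to 3′ along the gene.
MCM3: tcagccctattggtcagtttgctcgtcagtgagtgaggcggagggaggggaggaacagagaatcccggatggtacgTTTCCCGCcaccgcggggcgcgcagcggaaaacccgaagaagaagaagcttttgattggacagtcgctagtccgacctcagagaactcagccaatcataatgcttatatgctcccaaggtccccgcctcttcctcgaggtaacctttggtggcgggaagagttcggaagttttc
MCM6: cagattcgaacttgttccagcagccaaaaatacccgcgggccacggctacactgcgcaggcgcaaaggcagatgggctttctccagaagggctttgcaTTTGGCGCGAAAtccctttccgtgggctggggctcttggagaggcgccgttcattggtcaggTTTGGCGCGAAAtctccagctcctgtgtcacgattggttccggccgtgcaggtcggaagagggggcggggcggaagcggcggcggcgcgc
MCM7: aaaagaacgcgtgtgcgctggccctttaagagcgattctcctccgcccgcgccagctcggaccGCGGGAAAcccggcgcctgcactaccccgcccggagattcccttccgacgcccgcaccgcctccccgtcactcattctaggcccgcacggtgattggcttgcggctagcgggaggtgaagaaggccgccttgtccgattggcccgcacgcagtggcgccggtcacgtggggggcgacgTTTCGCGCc
POLE: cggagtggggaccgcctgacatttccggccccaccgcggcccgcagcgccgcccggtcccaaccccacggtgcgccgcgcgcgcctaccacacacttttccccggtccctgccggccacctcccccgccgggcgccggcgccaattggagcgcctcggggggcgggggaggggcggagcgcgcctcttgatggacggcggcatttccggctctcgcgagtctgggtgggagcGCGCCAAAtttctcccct
PCNA: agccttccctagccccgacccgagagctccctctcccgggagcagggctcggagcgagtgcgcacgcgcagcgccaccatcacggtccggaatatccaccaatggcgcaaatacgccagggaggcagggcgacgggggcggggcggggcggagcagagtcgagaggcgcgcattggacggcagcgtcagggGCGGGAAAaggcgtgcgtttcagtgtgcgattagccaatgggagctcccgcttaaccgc
PRIM1: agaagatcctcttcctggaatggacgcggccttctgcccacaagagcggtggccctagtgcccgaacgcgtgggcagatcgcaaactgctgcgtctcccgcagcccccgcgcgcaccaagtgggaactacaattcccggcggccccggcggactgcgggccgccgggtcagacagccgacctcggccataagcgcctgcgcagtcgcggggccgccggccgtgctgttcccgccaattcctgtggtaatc

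In the MCM6 promoter the run TTTGGCGCGAAA occurred at 152 and again at 90 bases before the start, and each run holds TTTGGCGC on the strand of the gene and TTTCGCGC on the other strand, overlapping. PCNA held a single word, 59 bases before its start, and PRIM1 none of the words. In MCM2 the words lay just after the start, at bases 3 and 7, as did those of GINS1 at base 6 and CDC6 at base 8. Members with a word had a median log2 difference of 0.22 in P2 against P1 (15 detected genes, 12 above 0), and members without one 0.14 (19 genes, 13 above 0). In P4 against P2 the medians were -0.20 and -0.22. The medians of members with and without one of these exact words thus lay close in both pairs, and control by E2F was not tested. The words TTTGAA (the CHR element of mitotic genes) and CCAAT were found in 2 and 20 of the 35 promoters, or 5.71% and 57.1%, against 15.4% and 35.7% of all promoters and 9.81% and 36.8% of those of detected genes. A match is a description of the sequence only.

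**Figure D1:**
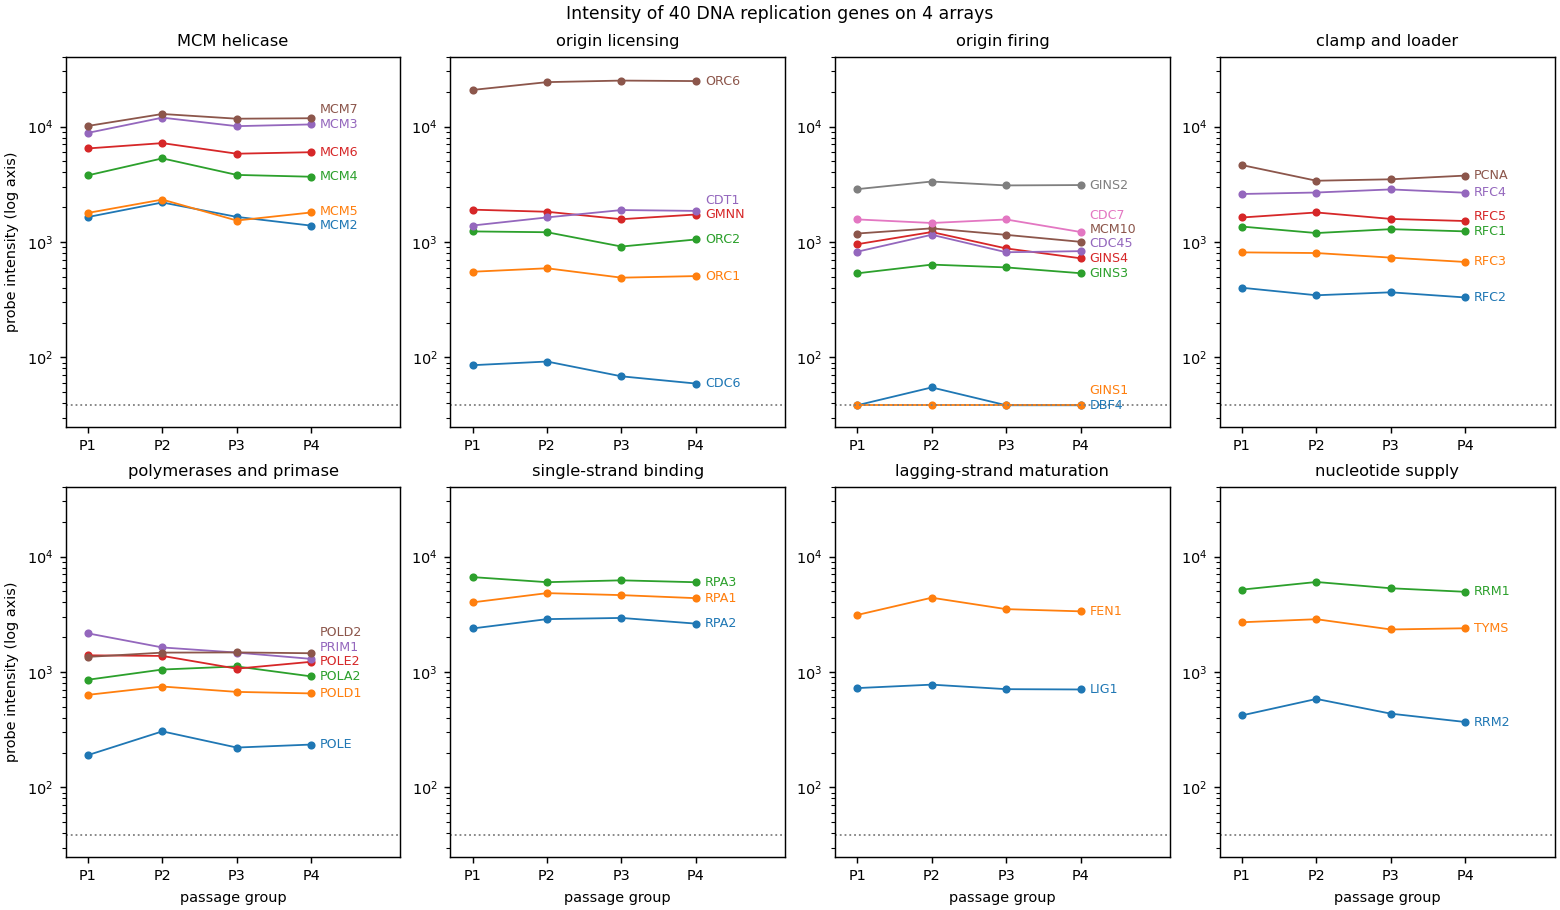
Intensity (log axis) of the 40 replication genes on the P1, P2, P3 and P4 arrays, 1 line per gene and 1 panel per role; the dotted line is the detection limit of 38.4, and values under it are drawn on it. All 6 MCM helicase genes peak in P2, while PCNA and PRIM1 are highest in P1; heights of different genes are not comparable, since each is a different probe.

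The 6 genes of the MCM helicase were all highest in P2. MCM2 read 1643 (P1), 2197 (P2), 1648 (P3) and 1384 (P4), and MCM4 read 3774.5, 5298, 3809 and 3673. MCM5 read 1784, 2328, 1533 and 1800.2. In each of the 3 genes P2 stood above the other arrays by more than those differed among themselves. MCM3 read 8809.5, 11943, 10077 and 10434, and MCM7 read 10121, 12849, 11693 and 11803. For this pair P1 was lowest, and P3 and P4 lay between P1 and P2. MCM6 differed least, with 6459, 7184, 5816 and 5992. Against P1, the P2 values were 1.11-fold (MCM6) to 1.40-fold (MCM4) higher, with a median log2 difference of 0.40. Against P2, those of P4 were lower by 1.09-fold (MCM7) to 1.59-fold (MCM2), with a median of -0.32. These 2 comparisons share the P2 array, so a P2 level of its own enters both. Further detected probes of MCM3, MCM4 and MCM7 gave log2 differences of 0.31, 0.20 and 0.16 in P2 against P1, the same direction with smaller size. The MCM7 probe did not peak in P2, however, with 391 (P1), 436 (P2), 473 (P3) and 432 (P4).

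Among the licensing genes that load this ring, P2 did not stand out as a group. The 6 genes had a median log2 difference of 0.10 in P2 against P1 and -0.22 in P3 against P1. CDT1, the MCM loading factor, read 1387 (P1), 1631 (P2), 1889 (P3) and 1857 (P4), so that P1 was lowest. GMNN, which encodes geminin, the inhibitor of CDT1, read 1904, 1825, 1574 and 1728, so that P1 was highest. In P3 against P1 the log2 difference was 0.45 for CDT1 and -0.28 for GMNN, 0.72 apart. This contrast was chosen after the values were seen, and each gene has 1 probe. ORC2, an origin-binding subunit, read 1233, 1213, 912 and 1050.1, so that both later groups lay under P1 and P2. ORC1, the largest subunit of the complex, read 551, 591, 489.9 and 506 in the same order. ORC6, a further subunit, read 20763 in P1 and between 24264 and 25027 on the other arrays; its second probe, at 729 in P1 and 803 to 859 elsewhere, was also lowest in P1. CDC6, the loading ATPase, read only 85.4, 91.9, 68.4 and 59.2, close to the limit, and was 1.55-fold lower in P4 than in P2.

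Of the genes that fire licensed origins, 6 were detected on all 4 arrays, and 5 of them were highest in P2. CDC45, part of the active helicase, read 823 (P1), 1153 (P2), 814 (P3) and 832 (P4), and the other 3 arrays lay within 1.02-fold of each other. GINS4 read 955, 1218, 878 and 721, so P4 was lowest, 1.69-fold under P2. GINS2 (2867.5, 3338, 3088 and 3111) and GINS3 (534, 636, 601 and 535) differed less, by 1.16-fold and 1.19-fold between P2 and P1. The fourth subunit, GINS1, was under the limit on every array. MCM10, a helicase activator, read 1182, 1311, 1151 and 1002, but its second probe was highest in P1 (330.4) and lowest in P4 (215). CDC7, the kinase subunit, went its own way with 1567, 1459, 1565 and 1219, lowest in P4. Its activator DBF4 was detected in P2 only, at 54.8, at least 1.425-fold over each other array.

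The clamp and its loader did not share the P2 peak. PCNA, the sliding clamp, read 4633 (P1), 3391 (P2), 3489 (P3) and 3757.5 (P4). P1 was thus above the 3 later arrays, 1.37-fold over P2. The second detected PCNA probe, much dimmer, read 215, 191, 212 and 225, with P2 lowest and P4 highest, so the lower value in P2 is in both probes and the high P1 value in 1. Of the 5 RFC genes, RFC1, RFC2 and RFC3 were highest in P1, RFC4 in P3 and RFC5 in P2. Their brightest probes spanned 1.10-fold (RFC4) to 1.21-fold (RFC2 and RFC3) over the 4 arrays. In P2 against P1 the brightest RFC2 probe gave a log2 difference of -0.22 and its further probe 0.12. The 3 RFC3 probes, from bright to dim, gave -0.02, -0.10 and 0.47, and those of RFC4 gave 0.04 and 0.30. The direction in P2 therefore depends on the probe for RFC2 and RFC3, and for RFC4 the size does. The clamp and loader group had a median log2 difference of -0.10 in P2 against P1, the lowest of the 8 role groups, and the MCM group the highest; no test of that difference is possible with these arrays.

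Polymerase and primase genes had no common pattern against P1. In P4 against P2 all 6 were below 0, where 47.6% of all genes were above 0. Their log2 differences in that pair ran from -0.38 to -0.02, with a median of -0.20. POLE read 189.9 (P1), 305 (P2), 221 (P3) and 234.5 (P4). It was 1.61-fold higher in P2 than in P1, the only member past 1.5-fold in that pair. POLE2, its second subunit, read 1392, 1376, 1067 and 1223, nearly equal in P1 and P2. PRIM1, the catalytic primase subunit, read 2158, 1629, 1470.1 and 1296, so that each later group was under the one before it. This was the largest difference of any member in P4 against P1, 1.66-fold lower in P4. A second PRIM1 probe read 1687, 1471, 1354 and 1294, in the same order, with a log2 difference of -0.38 in place of -0.74. POLA2, a subunit of the polymerase alpha that holds primase, read 855, 1048, 1115 and 914, highest in P3. Its log2 difference from PRIM1 in P3 against P1 was 0.94. The polymerase delta genes varied little, POLD1 reading 632, 747, 671 and 651 and POLD2 reading 1349, 1469, 1475 and 1451. A dimmer POLD2 probe read 254 in P1 and 173 to 207 on the other arrays, in the other direction.

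Single-strand binding, strand maturation and nucleotide supply genes completed the list. Of replication protein A, RPA1 read 4004, 4815.5, 4627.5 and 4356 and RPA2 read 2379, 2866, 2935 and 2620.4, both lowest in P1, whereas RPA3 read 6630.5, 5992, 6216.5 and 5985. FEN1, the nuclease that trims Okazaki fragments, read 3115 in P1, 4395 in P2, 3499 in P3 and 3348. Its second probe, at 759.9, 936, 768 and 770.5, also stood out in P2 alone. LIG1, the ligase that joins those fragments, read 724, 775, 708 and 704. RRM2, the regulated small subunit of ribonucleotide reductase, read 419.8, 583, 434 and 368, and was 1.59-fold lower in P4 than in P2. The large subunit RRM1 read 5165, 6015, 5307 and 4945, a smaller step in the same direction. TYMS, which makes thymidylate, read 2692.5, 2862, 2332 and 2389. All 3 nucleotide supply genes were thus highest in P2.

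**Figure D2:**
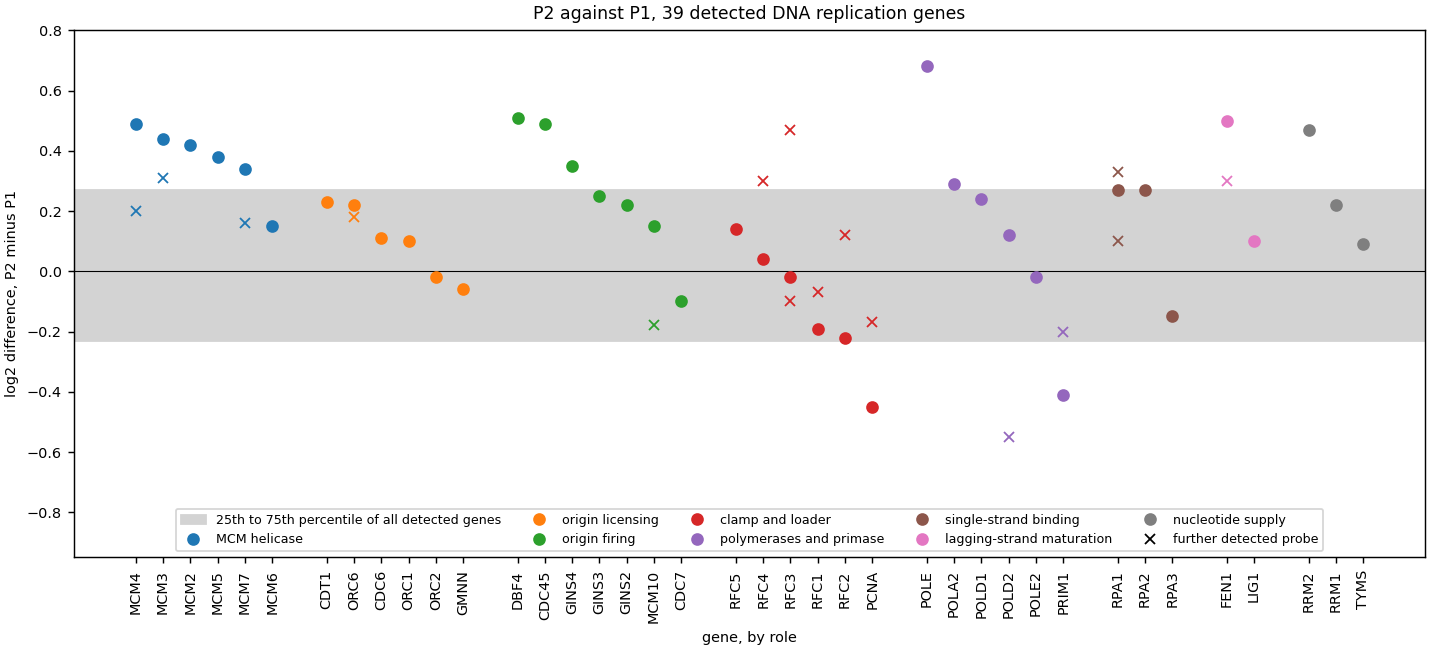
Log2 difference in intensity, P2 minus P1, for the 39 detected replication genes ordered by role; circles are each gene's brightest probe, crosses its further detected probes, and the grey band spans the 25th to 75th percentile of all detected genes (-0.23 to 0.27). The 6 MCM genes lie between 0.15 and 0.49, while PCNA (-0.45) and PRIM1 (-0.41) lie below the band.

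Over all 39 detected members, the median log2 difference in P2 against P1 was 0.22, against 0.03 over all 11803 detected genes. Above 0 were 29 of 39 members (74.4%), where 52.9% of all genes were. This lean was not particular to the members. Of the mitosis genes described below, 76% were above 0 in this pair, and of the G1 to S regulators 76.9%. At a fold of at least 1.5, 1 member was higher and none lower, below the 8.13% and 7.72% of all detected genes past it. The member is POLE, and with an offset of 50 added to the values in place of a floor no member passed. At the smaller fold of 1.2, chosen after the values were seen, 14 members were higher, where 25.6% of all genes were, and 2 lower (PCNA and PRIM1), where 22.3% were. The shift was thus spread over many members in small steps. Most members are bright, so the 7732 genes of at least 4 times the limit on every array are a closer background: their median was 0.04, and 54.6% of them were above 0. By at least 1.5-fold, 5.54% of these bright genes were higher and 4.31% lower. The 37 members among these bright genes had a median of 0.22, with 27 above 0. At 1.2-fold, 13 of the 37 were higher, where 23.1% of the bright genes were. DBF4 is not among the 37. Detected in P2 alone, it could only be higher in P2 in the counts over 39 members. As a gauge of differences between probes, the first and second brightest probes of 1531 genes with a bright pair were compared. They differed by a median of 0.19 in the log2 difference of P2 against P1. That is a gap for single genes, while the members' median of 0.22 is taken over 39 genes. Both probes were read on the same arrays, so this gap does not measure differences between cultures or arrays. Of 16 further detected probes of 14 members, 12 had the same sign as the brightest probe. Single-gene differences of this size therefore lie within what different probes of one gene give.

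From P2 to the later groups the members were lower. In P3 against P2, 28 of 39 members were below 0 and 11 above, with a median of -0.18 against -0.02 over all genes, of which 47.3% were above 0. DBF4, detected in P2 alone, could only be below 0 in a later group against P2. Of the 37 bright members, which leave it out, 26 were below 0 and 11 above, where 46.1% of bright genes were above 0. MCM5 was lower by at least 1.5-fold (1.52-fold), 1 of 39 members, where 5.25% of all genes were, and 2 members were with the floor at the 50th percentile. None was at least 1.5-fold higher, where 6.64% of all genes were. In P4 against P2, 35 of 39 were below 0 and 4 above, with a median of -0.22 against -0.02, and 47.6% of all genes were above 0. Of the 37 bright members, 33 were below 0 and 4 above, where 46.5% of bright genes were above 0. Past 1.5-fold, 4 members were lower in P4 and none higher, where 4.55% of all genes were lower and 7.24% higher. The 4 were GINS4, MCM2, RRM2 and CDC6. Without CDC6, which is dim, 3 of the 37 bright members were lower by that fold, where 2.15% of bright genes were. CDT1, PCNA, RFC1 and ORC6 were the 4 members above 0. At 1.2-fold, 13 of 39 members were lower in P4 than in P2, where 19.8% of all genes were. Of the 37 bright members, 11 were, where 15.9% of bright genes were. The median gap between the 2 brightest probes of a gene was 0.12 in P3 against P2 and 0.13 in P4 against P2. In these pairs 14 and 13 of the 16 further probes had the sign of the member's brightest probe.

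**Figure D3:**
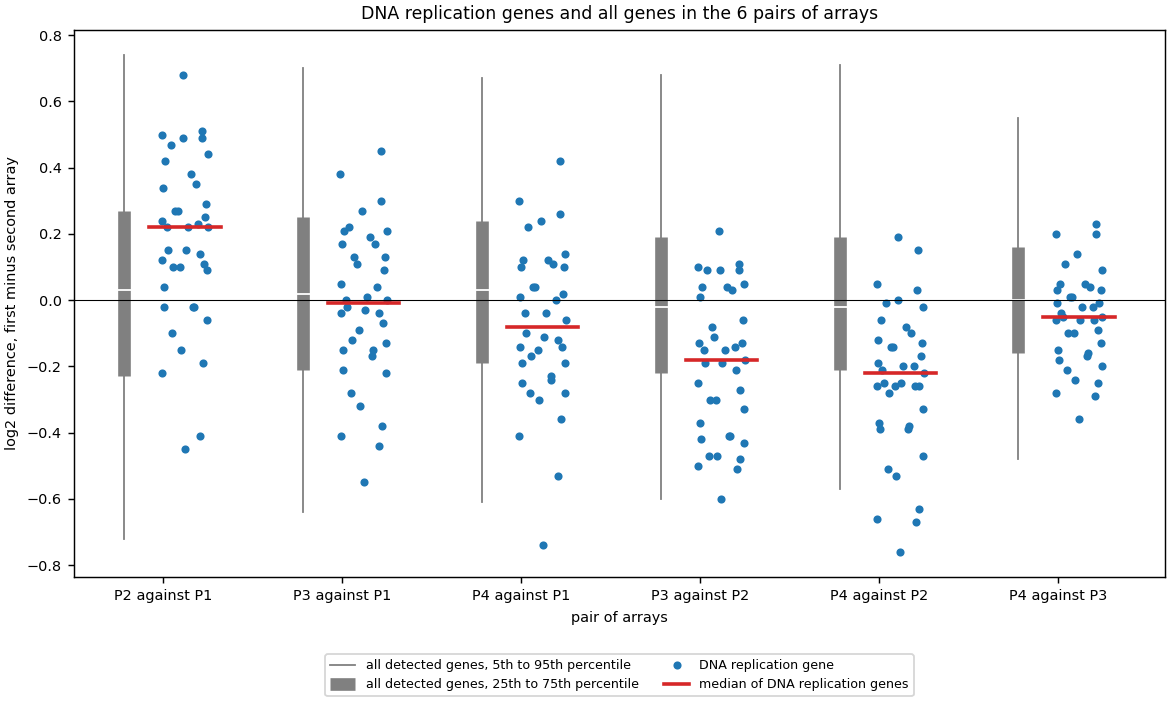
Log2 differences of the detected replication genes (points) and their median (red line) in the 6 pairs of arrays, with the 5th to 95th percentile (thin grey line) and the 25th to 75th percentile (thick grey line) of all detected genes. The medians are 0.22 in P2 against P1 and -0.22 in P4 against P2, and the members' spread lies mostly inside that of all genes.

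Compared with P1, neither P3 nor P4 differed much as a group. In P3 against P1 the median over 38 members was -0.01, with 18 above 0 and 20 below, where 52.3% of all genes were above 0. No member was past 1.5-fold either way, where 7.36% of all genes were higher and 6.21% lower. In P4 against P1 the median was -0.08, against 0.03 over all genes, with 16 members above 0 and 22 below, where 53.6% of all genes were above 0. PRIM1 was the one member at least 1.5-fold lower, where 5.50% of all genes were, and no member was at least 1.5-fold higher, where 6.80% were. With the mean of all detected probes PRIM1 did not pass. P4 against P3, a pair with no array in common with P2 against P1, had a median of -0.05, with 13 members above 0 and 25 below, where 49.1% of all genes were above 0. No member was past 1.5-fold there, where 4.46% of all genes were higher and 3.33% lower. CDC7 had the largest difference in that pair, 1.28-fold lower in P4.

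Other genes of the pathway gave a mixed picture. The fork and origin genes outside the 40 had a median of 0.02 in P2 against P1 over 28 detected genes, with 5 at least 1.5-fold higher and 2 lower. Among all detected genes, 8.13% were higher and 7.72% lower by that fold. RECQL4, a helicase of origin firing, read 139.7 (P1), 313 (P2), 215 (P3) and 219 (P4), and CHTF18, of an alternative clamp loader, read 288, 570, 425 and 398. Both were highest in P2. RNASEH2B, a subunit of the enzyme that removes ribonucleotides from DNA, read 579.5, 294, 338 and 313, highest in P1 by 1.97-fold over P2. ORC5, an origin-binding subunit, read 917, 604, 546 and 524, and ATAD5, which unloads PCNA, read 187, 131, 153 and 121, both also highest in P1. In P4 against P2, 25 of the 28 were below 0 and 3 above, with a median of -0.21, where 47.6% of all genes were above 0.

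Chromatin assembly genes at the fork had 9 of 11 above 0 in P2 against P1, where 52.9% of all genes were, with a median of 0.20. Of the 11, 1 gene was at least 1.5-fold higher, near the 8.13% of all genes. This was UHRF1, which keeps DNA methylation after replication, with 1901 (P1), 3726 (P2), 2751 (P3) and 2250.5 (P4). Other nucleotide supply genes had a median of 0.10 in that pair over 16 genes. None was at least 1.5-fold higher and 1 was lower, where 8.13% and 7.72% of all genes were. RRM2B, the p53-induced ribonucleotide reductase subunit, read 366, 225, 154 and 433, lowest in P3.

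Regulators of the G1 to S step had a median of 0.15 in P2 against P1, 0.10 in P3 and 0.05 in P4, over 26 genes. In P2 against P1, 20 of the 26 were above 0, where 52.9% of all genes were. By at least 1.5-fold, 2 of the 26 were higher and 2 lower, near the 8.13% and 7.72% of all genes. CDKN1A, the p53 target p21, which inhibits cyclin-dependent kinases, read 1562 (P1), 489 (P2), 89.9 (P3) and 2546 (P4). It was lowest in P3, where the replication genes had a median near that of P1, and second lowest in P2, where they were highest. CDKN1C, another inhibitor of this family, read 328, 156, 414 and 394, lowest in P2. CCNE1, which encodes the S phase cyclin E1, read 1250.4, 1517.5, 1330 and 1402, highest in P2. E2F1 read 130.2, 88.0, 84.1 and 92.1, highest in P1. CCND3, a G1 cyclin, read 1170.1, 1430, 2197 and 2165, higher in the later groups. The part of these genes in the P2 values was not tested.

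Genes of mitosis were set beside them, since both sets mark dividing cells. The 25 mitosis genes had a median of 0.16 in P2 against P1, 0.31 in P3 against P1 and 0.08 in P4 against P1, and 21 of them had their highest value in P3, where 21.9% of all detected genes did. In P2 against P1, 19 of the 25 mitosis genes and 29 of 39 replication genes were above 0, where 52.9% of all genes were. In P3 against P1 all 25 mitosis genes were above 0, while 18 of 38 replication genes were. Among them CENPE, a kinetochore motor, read 908 (P1), 1510 (P2), 1698 (P3) and 1514 (P4), and TPX2, a spindle factor on chromosome 20, read 1274, 1948, 4137 and 4081.5. MKI67, the Ki-67 proliferation marker, read 142, 172, 178 and 129.6. The array on which most genes peaked was thus P2 for replication and P3 for mitosis, a difference that 1 array a group gives no means to test.

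**Figure D4:**
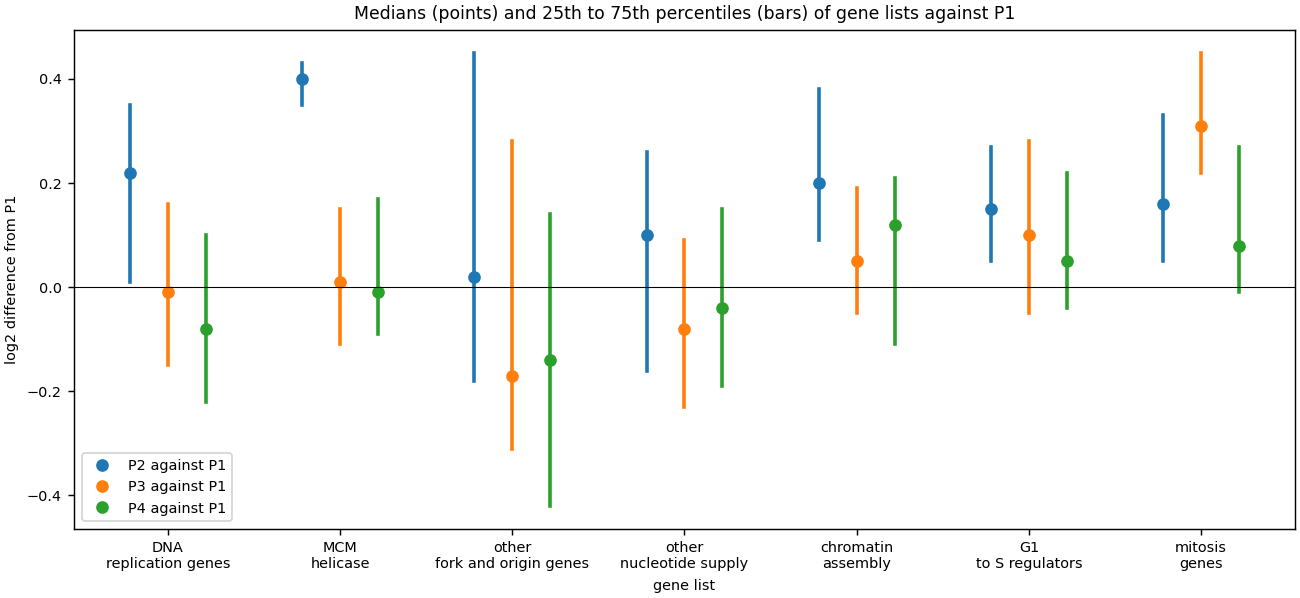
Median log2 difference from P1 (points) and 25th to 75th percentile of the genes (bars) for the replication genes, their MCM helicase group and 5 further lists, in P2 (blue), P3 (orange) and P4 (green). The replication and MCM medians are highest in P2 (0.22 and 0.40), and the mitosis median is highest in P3 (0.31).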

How the data were processed

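The authors deposited linear intensities for 47323 probes on 4 Illumina arrays, one per passage group. Which software made them is not given in the sources used here. They show background subtraction (25.2% to 25.4% of probes below 0) and near-common quantiles, which would hide differences in total RNA. Per the labels' protocols, Trizol-extracted RNA was column-cleaned, DNase-treated and labelled as biotinylated cRNA.

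Arrays were quantile normalized, raised to a floor at the 60th percentile (38.4, also the detection limit) and log2 transformed, with Python 3.11.15 and pandas 2.3.3. Probes took symbols from the platform annotation (30113 with 1 gene, 8 with several, 17202 not listed), updated by Entrez identifier for 30074. A gene was its brightest probe. Y-linked and X-inactivation centre genes were not analysed. A pair used genes detected on at least 1 of its arrays. A gene under the limit on an array was held at it.

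All members may be named. Of the other pathway lists, CDKN1A, CCNE1, E2F1, MKI67 and the 3 highest and 3 lowest genes against P1 could be. Members and lists were chosen with earlier results of these data known. On simulated data with planted shifts in P2, the recovered median differences were checked, and the counts were not.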

Additional observations from a re-analysis of the deposited data

How the results depend on the processing

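The 6 pair medians, the counts past 1.5-fold, and the counts of members highest in P2 and lowest in P1 were recomputed under 7 alternatives. These were no further normalization, scaling to a common 75th percentile, a floor at the 50th percentile, a limit at the 75th percentile, log2 of the value plus 50 with no floor, the mean of all detected probes, and genes at 4 times the limit only. All 42 medians stayed within 0.1 log2 units of the reported value, a tolerance set in the absence of replicates. They ranged from 0.20 to 0.23 in P2 against P1 and from -0.23 to -0.21 in P4 against P2. Of 140 recomputed values, 136 stayed within tolerance (1.5 times for counts) and 4 counts moved. The count of members at least 1.5-fold higher in P2 than in P1 was 2 with the lower floor and 0 with the offset. The count lower in P3 than in P2 was 2 with the lower floor. The count lower in P4 than in P1 was 0 with the mean of all probes, in place of 1, since the dimmer PRIM1 probe differed less. No array could be left out, and no paired analysis was possible because each group had 1 array. The number of arrays and the dimness of CDC6, DBF4 and GINS1 limit the precision.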
